A study of Caenorhabditis elegans with 2 samples.

Results

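The proteasome subunit genes of Caenorhabditis elegans were examined for binding of PHA-4, and 6 of the 33 carried one of the strongest binding peaks of the genome at their promoter (18.2%, against 3.52% of all protein-coding genes). Of the 2 replicates, replicate 2 had a region under each of the 6 peaks and replicate 1 under 3. With as many of the strongest regions taken from replicate 2 alone, 4 members had one (12.1%, against 3.50% of all genes). From replicate 1 alone, 1 member had one (3.03%, against 2.26%). The members were all protein-coding genes with a symbol beginning pas-, pbs-, rpt- or rpn-, which gave 33 of the 19973 nuclear protein-coding genes in the annotation. Binding was measured by chromatin immunoprecipitation and sequencing (ChIP-seq) in whole young adults of strain OP37, which is unc-119(ed3) on chromosome III and carries the insertion wgIs37 for an eGFP-tagged pha-4. Worms of both sexes were pooled, and there were 2 biological replicates from separate biosamples, all of 1 genotype and 1 stage. The values belong to the tagged protein, and no untagged library was analysed here. In whole worms, binding in few cells and weak binding in many cells cannot be told apart.

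The 33 genes were read in the pooled list of regions made by the authors from both replicates, which holds 24890 peaks and background regions on the ce11 build. A region belonged to a gene when its summit lay from 1000 bp upstream to 200 bp downstream of an annotated 5' end, called the promoter window below. This gave 39 regions, each 340 bp wide, and each was in the window of only 1 of the 33 genes. Each region carries a signal value and a q value from the authors, and 839 regions passed the irreproducible discovery rate (IDR) step and are called optimal peaks. Within the pooled list the signal ran from 9.28 to 168.7 with a median of 13.1, and the weakest optimal peak had 41.0. The replicates were unequal: q was 0.05 or lower at 7548 regions of replicate 2 and at 0 nuclear regions of replicate 1, whose lowest nuclear q value was 0.163. Values of each replicate are therefore given beside the pooled ones, and signals are compared only within a list.

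The proteasome degrades proteins that are marked with ubiquitin. Its core particle is a barrel with outer rings of alpha subunits (pas genes) and inner rings of beta subunits (pbs genes), some of which carry the proteolytic sites. The regulatory particle caps the barrel, with a ring of ATPases (rpt genes) that unfold the substrate and further subunits (rpn genes) that bind ubiquitin, remove it and hold the cap together. In C. elegans the transcription factor SKN-1, in an isoform tied to the endoplasmic reticulum, raises proteasome gene expression when proteasome activity is impaired. PHA-4 is a forkhead factor of the FoxA type, known for its part in pharynx formation and in adult lifespan.

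The sequences at the summits of the leading regions are shown because they lie under some of the strongest pooled regions of the set, 4 of them optimal peaks. They are the stretches within 100 bp of the summit, ended at the nearest annotated gene, for 6 members with a q value of at most 0.05 and a summit between genes. The stretches of pbs-7 and pas-5 also meet this rule and are not shown. They were left out by the chromosome on which they lie, not by their motifs. Within 100 bp of the summit pbs-7 held no match to the motifs searched. The pas-5 stretch held a forkhead match and both 6-mers but no SKN-1 site. The sequences are from RefSeq, build WBcel235, which is the assembly of ce11, and run 5' to 3' on the strand of the gene: rpn-3 at chrIII:8447096-8447254 on the plus strand, pbs-1 at chrIV:1709833-1710033 on the minus strand, rpn-11 at chrII:4044547-4044677 on the minus strand, rpn-5 at chrII:4698428-4698560 on the minus strand, rpn-12 at chrII:11652896-11653096 on the plus strand and rpn-2 at chrIII:6198706-6198906 on the plus strand. Capitals mark matches to the 8 motifs searched on both strands, which are spelled out with the motif counts further on.
rpn-3: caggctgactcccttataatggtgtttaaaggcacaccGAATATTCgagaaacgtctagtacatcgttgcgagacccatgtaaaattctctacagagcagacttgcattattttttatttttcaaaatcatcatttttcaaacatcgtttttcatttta
pbs-1: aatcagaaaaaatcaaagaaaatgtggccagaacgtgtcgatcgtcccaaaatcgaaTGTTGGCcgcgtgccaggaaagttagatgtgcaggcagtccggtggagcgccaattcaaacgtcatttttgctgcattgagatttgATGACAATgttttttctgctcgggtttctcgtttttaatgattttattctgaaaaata
rpn-11: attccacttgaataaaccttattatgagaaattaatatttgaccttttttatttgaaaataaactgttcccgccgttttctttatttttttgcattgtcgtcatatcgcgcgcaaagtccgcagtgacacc
rpn-5: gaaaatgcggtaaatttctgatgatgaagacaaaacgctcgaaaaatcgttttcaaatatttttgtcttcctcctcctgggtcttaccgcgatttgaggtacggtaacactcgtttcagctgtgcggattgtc
rpn-12: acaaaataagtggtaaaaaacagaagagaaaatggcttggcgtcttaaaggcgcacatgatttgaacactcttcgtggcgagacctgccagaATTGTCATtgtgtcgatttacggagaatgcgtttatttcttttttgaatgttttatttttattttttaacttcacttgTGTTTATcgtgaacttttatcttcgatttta
rpn-2: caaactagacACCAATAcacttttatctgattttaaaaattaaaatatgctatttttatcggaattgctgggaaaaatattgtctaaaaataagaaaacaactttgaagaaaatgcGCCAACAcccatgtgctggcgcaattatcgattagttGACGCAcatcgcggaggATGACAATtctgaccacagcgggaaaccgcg

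Among these stretches, that of rpn-3 held the heat shock element GAATATTC 13 bp from the summit. The pbs-1 stretch held a forkhead match (TGTTGGC) 37 bp and a SKN-1 match (ATGACAAT) 43 bp from the summit. In the rpn-12 stretch the SKN-1 match ATTGTCAT lay 1 bp from the summit and a forkhead match (TGTTTAT) 70 bp from it. The rpn-2 stretch held forkhead matches 16 and 84 bp from the summit, the 6-mer GACGCA at 53 bp and the SKN-1 match ATGACAAT at 70 bp. The printed stretches of rpn-11 and rpn-5 held no match to the 8 motifs.

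Proteasome genes had a region in their promoter more often than genes at large at every level of the list. Of the 33 genes, 28 (84.8%, exact 95% interval 68.1 to 94.9) had at least 1 pooled region in the window, against 38.9% of all nuclear protein-coding genes. A region with a q value of at most 0.05 was found at 14 (42.4%, interval 25.5 to 60.8), against 12.8% of all genes. An optimal peak was found at 6 (18.2%, interval 6.98 to 35.5), against 3.52% of all genes. These intervals are Clopper-Pearson intervals that cover counting error over genes, and no test of the list was made. All 6 optimal peaks had the member as the nearest of the genes whose window held them, and with regions given only to the nearest gene the counts were 21, 11 and 6 of 33, against 34.2%, 10.2% and 2.57% of all genes.

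The 6 genes with an optimal peak were 3 beta subunits of the core particle and 3 subunits of the regulatory particle lid. The highest was rpn-3, a scaffold subunit of the lid, with a pooled signal of 65.7 and rank 157 of the 24890 regions (chromosome III at 8446984 to 8447323, summit 199 bp upstream). The strongest region in its window had a signal of 66.7 and rank 111 in replicate 2, and a signal of 5.11 and rank 18381 in replicate 1. The replicate 1 region lay 651 bp upstream and did not overlap the pooled peak, so that the rpn-3 peak is carried by replicate 2.

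The next was pbs-1, which by name corresponds to a proteolytic beta subunit of yeast, with a pooled signal of 59.9 and rank 221 (chromosome IV at 1709763 to 1710102, summit 188 bp upstream). Its window held a region of signal 62.3 and rank 147 in replicate 2 and none in replicate 1. The rpn-11 gene encodes the metalloprotease of the lid that cuts ubiquitin chains from the substrate. It had a pooled signal of 55.6 and rank 298 (chromosome II at 4044407 to 4044746, summit 31 bp upstream). In replicate 2 its strongest region had a signal of 47.6 and rank 396, and in replicate 1 a signal of 5.21 and rank 17593, at 881 bp upstream. A second replicate 1 region of rank 24044 overlapped the rpn-11 peak, low in that list.

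The rpn-5 gene, for another lid scaffold subunit, had a pooled signal of 52.1 and rank 387 (chromosome II at 4698290 to 4698629, summit 33 bp upstream). Its window held a region of signal 49.7 and rank 337 in replicate 2 and none in replicate 1. The remaining optimal peaks were weaker and belonged to non-catalytic beta subunits. At pbs-3 the pooled signal was 42.9 and the rank 737 (chromosome II at 4955407 to 4955746, summit 150 bp upstream). This was the only member with a rank under 1000 in both lists, with a signal of 35.3 and rank 995 in replicate 2 and a signal of 12.1 and rank 488 in replicate 1, although the replicate 1 summit lay 52 bp inside the gene. The pbs-3 summit fell in an untranslated exon of ulp-2, a SUMO protease gene on the same strand that ends 22 bp before pbs-3 begins.

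At pbs-7 the pooled signal was 41.4 and the rank 815, just inside the optimal list (chromosome I at 8696259 to 8696598, summit 128 bp upstream). Its strongest region had a signal of 33.3 and rank 1179 in replicate 2 and a signal of 7.20 and rank 6386 in replicate 1. That replicate 1 region lay 571 bp upstream, and the one that overlapped the pbs-7 peak had a signal of 6.32 and rank 10119. Just outside the list was pas-5, an alpha subunit, with a pooled signal of 40.5 and rank 876 (chromosome I at 10565868 to 10566207, summit 312 bp upstream). Its values were 34.1 and rank 1107 in replicate 2, and 6.85 and rank 7682 in replicate 1. The pbs-7 and pas-5 regions were thus nearly equal in signal on either side of the IDR limit.

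Another 8 members, pas-5 among them, had a region with a q value of at most 0.05 that was not an optimal peak. The rpt-2 gene, for an ATPase of the ring, had a pooled signal of 38.0 (chromosome V at 6017638 to 6017977, q = 0.00140). It was the only ATPase gene of the 6 at this level. The lid gene rpn-12 had 37.3 (chromosome II at 11652826 to 11653165, q = 0.00131), and rpn-2, whose product is a large scaffold of the base, had 35.0 (chromosome III at 6198636 to 6198975, q = 0.00109). The alpha subunit gene pas-7 had 26.7 (q = 0.00981), and rpn-8, for the partner of the lid metalloprotease, had 26.1 at 839 bp upstream (q = 0.0143). That rpn-8 region overlapped one of rank 2468 in replicate 2 and none in replicate 1. Another rpn-8 region lay 159 bp upstream (signal 18.6, q = 0.172). The strongest rpn-8 regions of the replicates lay 208 bp upstream in replicate 2 and 406 bp upstream in replicate 1. The beta subunit gene pbs-6 had 23.7 (q = 0.0302), and the alpha subunit gene pas-4 had 2 overlapping regions of 23.4 and 22.2 (q = 0.0340 and 0.0496). In replicate 2 the strongest regions of these 8 genes ranked from 1107 (pas-5) to 7708 (pbs-6).

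Replicate 1 ranked these 8 genes in another order. The strongest region in its list was that of rpn-2, with a signal of 10.9 and rank 937, followed by pbs-6 with 9.76 and rank 1702. The others with a replicate 1 region ranked from 7682 (pas-5) to 20584 (rpt-2), and pas-4 had none. None of these replicate 1 regions had a q value below 0.292.

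By part of the complex, the beta ring had a pooled region at 7 of 7 genes, a region of q at most 0.05 at 4 and an optimal peak at 3. The alpha ring had 5, 3 and 0 of 7, the ATPase ring 5, 1 and 0 of 6, and the rpn genes 11, 6 and 3 of 13. The exact 95% intervals of the optimal shares were 9.90 to 81.6% for the beta ring, 0 to 41.0% for the alpha ring, 0 to 45.9% for the ATPases and 5.04 to 53.8% for the rpn genes. These intervals overlap, and a difference between the parts of the complex cannot be read from such counts.

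A further 14 members had only pooled regions with a q value above 0.05. Highest of these were rpn-6.1 (signal 20.7, q = 0.0870), a lid subunit, rpn-9 (19.4), also of the lid, and rpt-4 (17.0), an ATPase. The lowest were pas-1 (10.2), rpn-7 (10.7) and rpn-13 (11.6), the last a ubiquitin receptor. In replicate 2 alone rpn-6.1, rpn-9, rpt-4, pas-1, pas-3 and pbs-2 had a region with a q value of at most 0.05, from 0.00168 at rpt-4 to 0.00414 at pas-3. Among them pas-1 stood apart, with rank 3630 in replicate 2, no region in replicate 1 and rank 20763 in the pooled list. Its summits lay 843 bp upstream in replicate 2 and 839 bp upstream in the pooled list. The pooled summit was nearer to the 5' end of the upstream gene on the same strand (153 bp).

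No pooled region lay in the window of 5 members: the alpha subunit genes pas-2 and pas-6, the ATPase gene rpt-5, the ubiquitin receptor gene rpn-10 and rpn-6.2, a paralog of rpn-6.1. Of these, pas-2, rpt-5 and rpn-6.2 also had none in either replicate list. In replicate 1 pas-6 had a region of rank 25521 and in replicate 2 rpn-10 had one of rank 17686, both low in their lists. Their nearest pooled summits outside the window lay downstream of the 5' end at pas-2 (415 bp, signal 13.7), rpn-10 (269 bp, 10.9), rpn-6.2 (1001 bp, 13.0) and pas-6 (1506 bp, 17.2), and 10436 bp upstream at rpt-5 (11.9). Just inside the window's downstream edge were summits of rpt-3 (161 bp downstream, signal 14.8) and pbs-4 (149 bp downstream, 12.0), and just outside it one of pas-1 (231 bp downstream, 13.0). Just inside its upstream edge was a summit of pas-5 (928 bp upstream, 15.6), and just outside it one of rpt-3 (1030 bp upstream, 18.4).

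**Figure D1:**
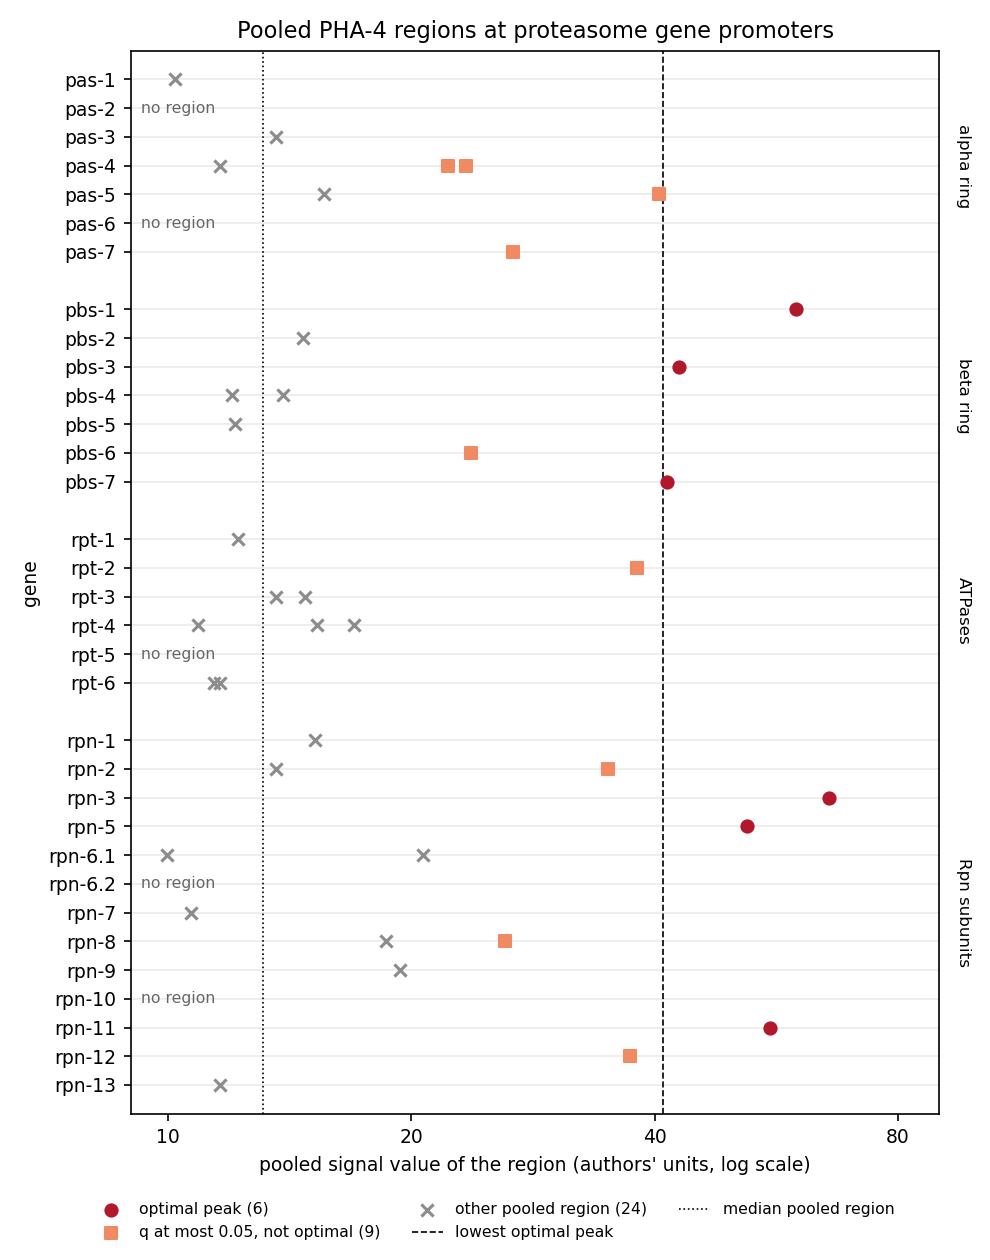
Pooled signal value (log scale, authors' units) of every pooled region in the promoter window of each of the 33 genes, grouped by part of the complex, with 1 point per region and no error bars because each value is a single pooled value. The 6 optimal peaks, at pbs-1, pbs-3, pbs-7, rpn-3, rpn-5 and rpn-11, lie at 41.4 to 65.7, pas-5 lies just below the lowest optimal peak of the list at 41.0, and 5 genes have no region.

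The summits sat close upstream of the annotated 5' ends. Over the 39 regions the median was 251 bp upstream (quartiles 134 and 382), and 37 were upstream. Over all 10920 pairs of a protein-coding gene and a pooled region in its window, measured in the same way, the median was 274 bp upstream (quartiles 84 and 598). Within 400 bp upstream were 28 of the 39 (71.8%) and 5136 of the 10920 (47.0%). The 6 optimal peaks lay from 31 to 199 bp upstream, each with the member as the nearest gene, and 73.8% of the 520 optimal promoter peaks lay within 400 bp upstream of their nearest gene. Many worm transcripts are trans-spliced, so the annotated 5' end can lie downstream of the start of transcription.

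By annotation, 22 of the 39 summits lay between genes, 6 in introns, 5 in coding exons, 4 in non-coding genes and 2 in untranslated exons. The same was not counted over all promoter-window regions, so these counts only describe the 39. The summits of rpt-2, pas-7 and the stronger pas-4 region lay in short non-coding RNA genes, namely F29G9.10, ZK945.13 and C36B1.16. The pbs-6 summit lay in a coding exon of its neighbour cids-1. The summit of the stronger rpn-8 region, 839 bp upstream, lay in an intron of its neighbour mrps-6. The windows of rpt-4 extend into nfyc-1, and 2 of its 3 regions had their summit in a coding exon of that gene.

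**Figure D2:**
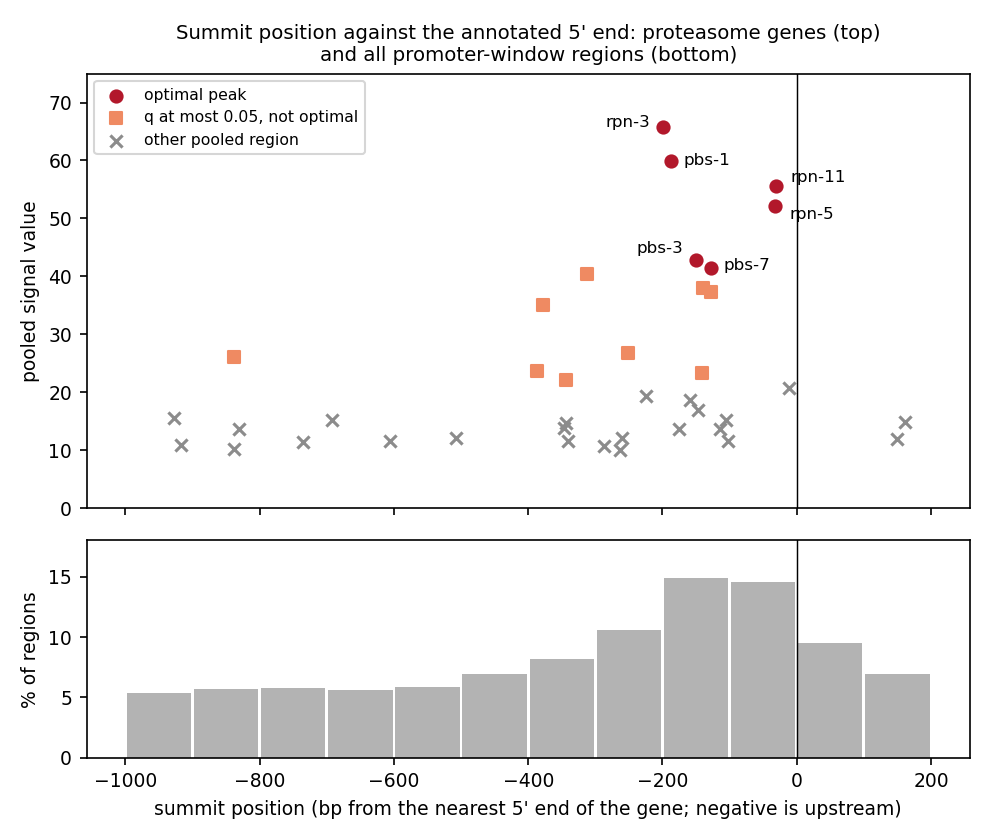
Top, pooled signal value of the 39 regions against the distance of the summit from the nearest annotated 5' end of the member gene (negative is upstream), with the 6 optimal peaks named. Bottom, share of all 9408 promoter-window regions in bins of 100 bp, measured to the nearest gene. The optimal peaks lie between 31 and 199 bp upstream, and weaker regions extend to 928 bp upstream.

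Most of these promoters face another gene. Of the 33 genes, 23 (69.7%) had their upstream neighbour on the opposite strand, head to head, against 45.4% of all protein-coding genes. In 20 (60.6%) that neighbour was less than 1000 bp away, against 17.5% of all genes. Of 39 pairs of member and region, 26 (66.7%) had a second gene whose window held the same summit, against 27.0% of such pairs over all genes. A peak in such a stretch cannot be given to 1 of the genes from these data. Among genes with a head-to-head neighbour this close, an optimal peak was found at 4 of 20 members, against 8.88% of all such genes, and a pooled region at 17 of 20, against 53.1%. Counts among 20 genes are small, and neither difference was tested.

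The partners of the optimal peaks were varied. The rpn-3 peak was shared with hsp-110, for a co-chaperone of the Hsp70 system, whose 5' end lay 245 bp from the summit on the other side. The rpn-5 peak was shared with scc-1, a cohesin subunit gene (261 bp), the pbs-1 peak with K08D12.3 (332 bp) and the pbs-7 peak with F39H11.1 (174 bp). The peaks of rpn-11 and pbs-3 were in no other gene's window. Among the other regions with a q value of at most 0.05, the rpn-12 region was shared with rad-23, whose product in yeast carries ubiquitin-marked proteins to the proteasome (267 bp). The rpt-2 region was shared with aps-1, an adaptor subunit gene (162 bp), the rpn-2 region with C23G10.7 (392 bp), the rpn-8 region with R12E2.11 (856 bp), and those of pas-7, pas-4 and pbs-6 with puf-12, rpb-3 and cids-1, whose 5' ends were nearer to the summit than the member's.

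The proteasome genes ranked higher in replicate 2 than in replicate 1. Over all 33 genes, with those lacking a region counted as 0, the median percentile by signal of the strongest region was 71.2 in the pooled list, 86.4 in replicate 2 and 31.3 in replicate 1. Over all protein-coding genes it was 0 in each list, since most had no region. Some region lay in the window of 27 members in replicate 2 (81.8%, against 43.3% of all genes) and of 21 in replicate 1 (63.6%, against 39.8%). With a q value of at most 0.05 the number was 19 in replicate 2 (57.6%, against 20.6%) and 0 in replicate 1, where no gene of the genome had one (0.00%).

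When the 839 strongest nuclear regions were taken from each replicate alone, 4 members had one in replicate 2 (12.1%, exact 95% interval 3.40 to 28.2, against 3.50% of all genes, which lies inside that interval). These were rpn-3, pbs-1, rpn-5 and rpn-11. In replicate 1 only pbs-3 had one (3.03%, against 2.26%), which is near the level of all genes. Of the 39 pooled regions, 34 overlapped a region of replicate 2 by at least 1 bp and 22 one of replicate 1, and 17 overlapped both (43.6%, against 40.9% of all promoter-window regions). A replicate 2 region lay under each of the 6 optimal peaks, and a replicate 1 region under 3 of the 6, against 69.0% of the 520 optimal promoter peaks. With 2 replicates the spread of these values cannot be estimated, and no test of the difference between replicates was made.

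**Figure D3:**
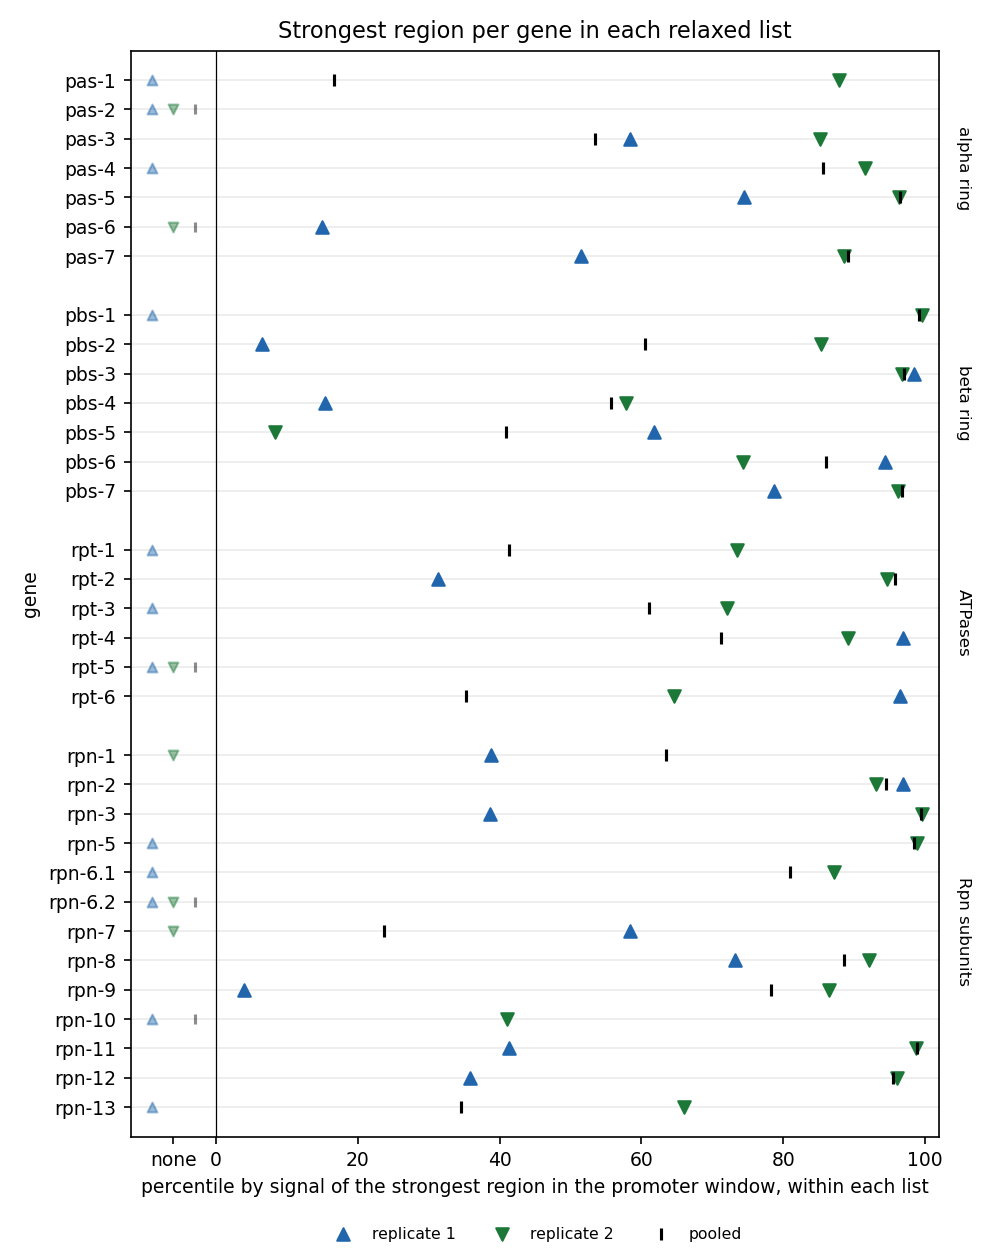
Percentile by signal, within each relaxed list, of the strongest region in the promoter window of each gene in replicate 1, replicate 2 and the pooled list, with genes that lack a region in a list marked at "none". In replicate 2 the genes with an optimal peak lie at 96.1 or above, whereas in replicate 1 they range from none (pbs-1 and rpn-5) to 98.4 (pbs-3).

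Motifs were counted within 100 bp of the summit. The forkhead consensus, the base order T, A or G, T, T, G or T, A or G, C or T, was at 24 of the 39 regions (61.5%, exact 95% interval 44.6 to 76.6), against 54.3% of all 9408 promoter-window regions, a share within the interval. It was at 3 of the 6 optimal peaks (interval 11.8 to 88.2%), against 56.7% of the 520 optimal promoter peaks, a share within the interval. The 3 were pbs-1, rpn-11 and pbs-3, with the nearest match 37, 38 and 43 bp from the summit. At rpn-11 this match lay on the gene's side of the summit, past the printed stretch.

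The SKN-1 site, the base order A or T, A or T, T, A or G, T, C, A, T, was at 13 of the 39 regions (33.3%, interval 19.1 to 50.2), against 10.6% of all promoter-window regions. Among those with a q value of at most 0.05 it was at 6 of 15 (interval 16.3 to 67.7%), against 10.7% of 2219. The 13 regions belonged to 11 genes, which were the beta subunit gene pbs-1, the alpha subunit genes pas-1 and pas-4, the ATPase genes rpt-2, rpt-3, rpt-4 and rpt-6, and rpn-2, rpn-8, rpn-11 and rpn-12. The nearest match lay from 1 bp (rpn-12) to 87 bp (rpt-6) from the summit, with a median of 43 bp. At rpn-11 the SKN-1 match lay 55 bp from the summit on the gene's side, past the printed stretch. Of the 13 regions, 11 also held a forkhead match, and the forkhead consensus alone was at 54.3% of all promoter-window regions. How often both motifs occur together was not counted over all promoter-window regions, so the 11 have no level to be set against. Regions of 1 gene can overlap, so the 39 are not independent. The stretches searched within 100 bp of their summits did not overlap, so no match was shared between regions. A match describes the letters of the window and does not show that SKN-1 was bound.

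For each of the other 6 motifs the interval included the level of all promoter-window regions. The GATA site TGATAA was at 15.4% of the regions, against 25.1%, and the heat shock element (GAA, any pair of bases, TTC) at 10.3%, against 12.4%. The 6-mers GACGCA and CGTCTC were at 7.69 and 15.4%, against 9.77 and 11.2%. The repeat GAGAGAG and the E-box CACGTG were at 0 of 39 (upper bound 9.03% each), against 7.05 and 4.95%. The share of G and C within 100 bp of the summit had a median of 36.8% over the 39 regions and of 36.3% over all promoter-window regions.

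**Figure D4:**
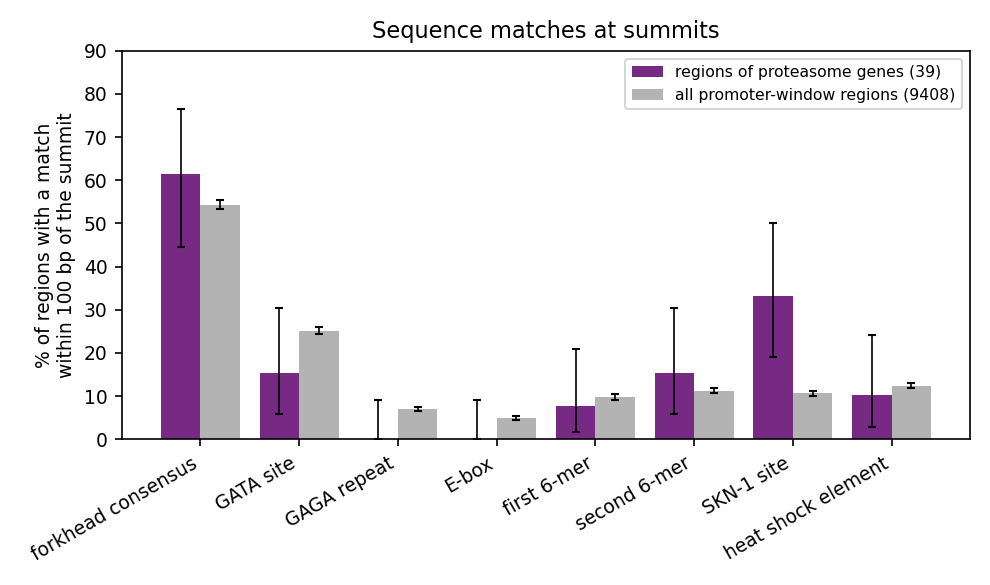
Share of regions with at least 1 match within 100 bp of the summit, for the 39 regions of proteasome genes (left bar of each pair) and all 9408 promoter-window regions (right bar), with exact 95% binomial intervals. The first 6-mer is GACGCA and the second CGTCTC. The SKN-1 site is at 33.3% of the regions of proteasome genes and at 10.6% of all, and the intervals of the proteasome genes' regions include the level of all regions for each of the other 7 motifs.

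Other genes of the ubiquitin-proteasome pathway were read in the same way. Of 28 such genes, 19 had a pooled region in the window (67.9%), 10 one with a q value of at most 0.05 (35.7%) and 3 an optimal peak (10.7%, exact 95% interval 2.27 to 28.2). Over all protein-coding genes the shares were 38.9%, 12.8% and 3.52%, the last of which lies inside the interval of the pathway genes. The 3 were cdc-48.1 (signal 114), for the ATPase that extracts ubiquitin-marked proteins, and ubq-2 (53.5) and ubl-1 (42.5), which encode ubiquitin or a ubiquitin-like protein fused to a ribosomal protein. The polyubiquitin gene ubq-1 had 39.5 (q = 0.00158), usp-14, for a deubiquitinase of the proteasome, 37.8, and rad-23 the 37.3 of the region it shares with rpn-12. The skn-1 gene had 32.0 at 938 bp upstream (q = 0.00143), and ddi-1, for a protease that acts on SKN-1, 23.9 (q = 0.0281), while png-1, also needed for that step, had no region. Also without a region were sel-1, sel-11, dss-1, psmd-9, npl-4.1 and npl-4.2, while let-70 had 32.6 at 717 bp upstream (q = 0.000908). Of the COP9 signalosome, a complex built much like the lid, csn-1 had 23.2 (q = 0.0368), csn-2, csn-4 and csn-5 had 13.8, 14.1 and 16.3, and csn-3 and csn-6 had none.

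Other large assemblies gave a frame for these counts. An optimal peak was at 6 of 33 proteasome genes (18.2%), against 40 of 78 cytosolic ribosomal protein genes (51.3%, interval 39.7 to 62.8), 4 of 8 genes of the CCT chaperonin (interval 15.7 to 84.3%) and 3 of 20 vacuolar ATPase genes (15.0%, interval 3.21 to 37.9). For regions with a q value of at most 0.05 the counts were 14 of 33 proteasome genes, 61 of 78 ribosomal protein genes, 4 of 8 CCT genes and 10 of 20 vacuolar ATPase genes. The median percentile of the strongest pooled region was 71.2 for proteasome genes, 97.2 for ribosomal protein genes, 80.6 for CCT genes and 79.9 for vacuolar ATPase genes. The interval of the proteasome genes' optimal share does not reach that of the ribosomal protein genes and overlaps those of the CCT and vacuolar ATPase genes, and the differences were not tested.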

How the data were processed

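Peak lists in narrowPeak format on ce11 were used. Per the deposited notes, each replicate's list holds peaks and background regions made from its alignments and a further file, a pooled list was made from both alignments, and the optimal list was derived from these by IDR. The signal value of each region is the authors' own, with its scaling not stated, and was used only to rank regions within a list. The deposited lists also give −log10 of the q value, which was turned back into q. For the aligner, peak caller, IDR limit and read number: not given in the sources used here. Read depth is thus unknown. The ce10 lists were not used, since coordinates were not converted.

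Genes and 5' ends came from Ensembl release 115 on WBcel235, and summits were placed by the window given in the report. Mitochondrial regions and genes were left out. Counts of genes and regions carry exact Clopper-Pearson intervals at 95%, and no test was run, because there is 1 group of 2 replicates. Motifs were searched on both strands. Assignment and motif search were tested on simulated data. The alternatives changed the window, the assignment to genes, the list and the motif window. The members, lists and motifs were chosen with earlier results of these data known. By rule, the text names each member with an optimal peak or a q value of at most 0.05, the genes that share such a region, and pathway genes with an optimal peak. Other members, other pathway genes and genes under a summit that are named were chosen after their values were seen. Python 3.11.15, pandas 2.3.3 and scipy 1.17.1 were used.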

Additional observations from a re-analysis of the deposited data

How the results depend on the processing

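The number of members with an optimal peak was 6 with each of 4 other windows or assignments to genes (2.57 to 4.68% of all genes). It was 4 among the optimal peaks of higher signal (1.9% of all genes). With these windows or assignments, 11 to 16 members passed at q of 0.05 (10.1 to 16.8% of all genes). Any region was held by 21 to 31 members (29.3 to 51.1% of all genes). Taking each replicate's own list gave 1 to 4 members for the strongest regions (2.26 to 3.50% of all genes). It gave 0 to 19 for a q value of at most 0.05 (0 to 20.6%) and 21 to 27 for any region (39.8 to 43.3%). The median percentile was 31.3 to 86.4. The low member values all came without replicate 2. Within 50 bp of the summit the forkhead share was 30.8% (33.1% of all promoter-window regions) and the SKN-1 share 17.9% (5.16%), as the window is shorter by construction. Within 150 bp the forkhead share was 69.2% (68.0% of all promoter-window regions) and the SKN-1 share 33.3% (15.4%). Within 50 to 150 bp the share for TGATAA was 7.69 to 20.5% (14.9 to 33.3% of all promoter-window regions). For the heat shock element it was 7.69 to 17.9% (5.99 to 18.4%). Regions with a counterpart in both replicates numbered 17 of 39 by any overlap, 10 when summits had to lie within 100 bp (17.5% of all promoter-window regions) and 11 when at least 50% of both regions had to overlap (26.1%). No paired analysis was possible because there is a single group. Depth is unknown, so a missing region cannot be told from one too weak for the read number.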

Other observations

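The SKN-1 site was also counted in the sequence upstream of each gene without regard to regions, a count added after the summit counts were seen. Within 500 bp upstream of the 5' end it was at 13 of 33 proteasome genes (39.4%, exact 95% interval 22.9 to 57.9), against 25.2% of 19973 protein-coding genes, a share inside that interval. Within 1000 bp it was at 20 of 33 (60.6%, interval 42.1 to 77.1), against 43.2%, which also lies inside the interval. More than 1 site within 500 bp was found at pbs-1, rpn-1 and rpn-2. The alpha subunit genes pas-2 and pas-6 and the ATPase gene rpt-5 held a site within 500 bp and no pooled region in the window. Within 1000 bp the heat shock element was at 23 of 33 genes (69.7%, interval 51.3 to 84.4), against 51.1%, just below the interval. The forkhead consensus was at all 33 within 1000 bp, against 96.1%. Within 500 bp the heat shock element was at 11 of 33 (33.3%), against 29.8%, a share inside its exact 95% interval. The forkhead consensus was at 32 of 33 within 500 bp (97.0%, interval 84.2 to 99.9), against 83.4%. These stretches can run into the neighbouring gene, and genes that face each other share them.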
